A study of Mus musculus with 12 samples.

Results

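Apolipoproteins are the proteins that package, carry and address lipid in plasma lipoproteins, and the liver makes most of them. ApoB is the structural protein of very low density and low density lipoproteins, ApoA-I and ApoA-II are the main proteins of high density lipoprotein (HDL), ApoE is a ligand of hepatic lipoprotein receptors, and the small exchangeable proteins set how fast lipoprotein lipase clears triglyceride from plasma. The 10 genes described here are Apoa1, Apoa2, Apoa4, Apoa5, Apob, Apoc1, Apoc2, Apoc3, Apoe and Apom, taken by name from the gene-level tables. All 10 were present among the 24062 genes of the tables, and all 10 passed the filter on low counts that left 12481 genes to test.

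The livers came from 12 female C57BL/6J mice, an inbred strain with no introduced allele, obtained at 6 weeks of age and kept for 2 weeks before the experiment. All mice ate the control diet for 3 days, after which 6 of those sequenced continued on it, and 6 had BIBB-515 mixed into it to give a dose of 55 mg/kg body weight over 10 days. BIBB-515 inhibits lanosterol synthase (Lss), which closes the ring system of the sterol precursor in cholesterol synthesis, and the comparison asks how liver mRNA responds to that block. Each library was 1 mouse, and neither a sequencing batch nor a cage is given in the labels. Whole-liver RNA cannot tell fewer cells of a type from less RNA per cell.

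Total counts per library were 22764819 to 27914647 in control mice and 24223939 to 31058370 in BIBB-515 mice, so counting error was small for every apolipoprotein. Levels are given as CPM, the counts per 1000000 counts of the library, after TMM scaling, which corrects library totals for differences in composition. Of the 12481 genes tested, 1705 (13.7%) had an edgeR quasi-likelihood p below 0.05 after Benjamini-Hochberg adjustment over all tested genes, 896 higher and 809 lower with BIBB-515. With total counts alone as the scale, 1496 were higher and 490 lower. The 20 most highly counted genes took 27.7% to 29.8% of counts in control mice and 23.6% to 25.2% in BIBB-515 mice.

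Apoa4, Apoa5 and Apoc1 were lower in mice given BIBB-515, and none of the 10 genes was called higher. Apoa4 changed most, to 0.451 of its control level, followed by Apoa5 at 0.755 and Apoc1 at 0.812. The other 7 genes, among them those for the main structural proteins ApoB, ApoA-I and ApoA-II and for ApoE, did not pass the test. Thus 3 of 10 were called, beside 13.7% of all tested genes in either direction and 6.48% called lower. The median log2 fold change of the 10 genes was -0.14, and that of all tested genes was -0.01.

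**Figure D1:**
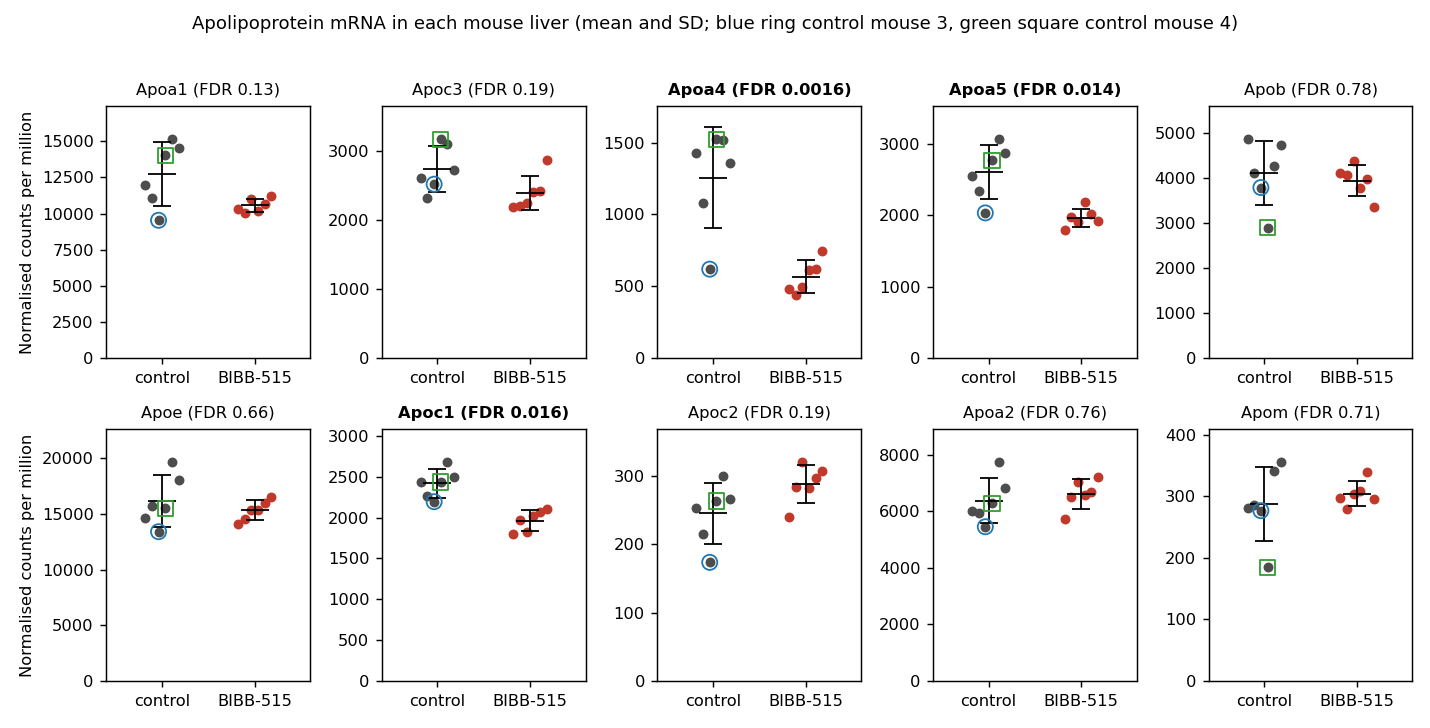
Normalised CPM of the 10 apolipoprotein genes in each liver, with 1 point per mouse, 6 control (grey) and 6 BIBB-515 (red), and the mean with SD in black. Bold titles mark the 3 genes with an edgeR adjusted p (FDR) below 0.05; the blue ring marks control mouse 3 and the green square control mouse 4. Apoc1 alone of the 10 has groups that do not overlap, and the Apoa4 and Apoa5 groups meet only through control mouse 3.

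A cluster of 4 of the genes lies on mouse chromosome 9, in the order Apoa1 (chr9:46228630-46230469, plus strand), Apoc3 (chr9:46233050-46235636, minus strand), Apoa4 (chr9:46240844-46243458, plus strand) and Apoa5 (chr9:46268608-46271919, plus strand), in build mm10. Apoa4 encodes ApoA-IV, a protein of triglyceride-rich particles and HDL made by the intestine and, in mice, also by the liver. It was counted at a lowest of 619, a median of 1394 and a highest of 1525 CPM in control mice. In BIBB-515 mice the same values were 439, 554 and 742 CPM. Of the 6 control mice, 5 lay above every BIBB-515 mouse, and the exception was control mouse 3, the lowest control, which fell among the treated animals. The log2 fold change of Apoa4 was -1.15 ± 0.20 (SE, n = 6 and 6), with an edgeR adjusted p of 0.00161 and an exact two-sided permutation p of 0.00649. By its unadjusted p, Apoa4 ranked 259 among the 12481 genes tested.

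Apoa5 encodes ApoA-V, a low-abundance plasma protein that promotes lipolysis of triglyceride-rich particles. Its level ran from 2036 through a median of 2667 to 3071 CPM in control mice and from 1803 through 1953 to 2183 CPM in BIBB-515 mice. As for Apoa4, 5 control mice were above all treated mice, and control mouse 3 was again the lowest control. Apoa5 was lower by a log2 fold change of -0.41 ± 0.10 (SE, n = 6 and 6; edgeR adjusted p = 0.0143; exact permutation p = 0.00433).

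Apoa1, which encodes the main protein of HDL, was between 9538 and 15156 CPM in control mice, with a median of 12991, and between 10060 and 11215 CPM in BIBB-515 mice, with a median of 10497. All 6 treated mice were below the control mean, and 4 control mice were above all of them, but control mouse 3 had the lowest value of the 12. The log2 fold change was -0.27 (95% interval -0.51 to -0.03) and Apoa1 was not called, with an edgeR adjusted p of 0.128. Without control mouse 3 it was -0.33, with an edgeR adjusted p of 0.0354.

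Apoc3, which encodes an inhibitor of lipoprotein lipase and of particle clearance, had a lowest, median and highest of 2310, 2664 and 3170 CPM in control mice. The corresponding values with BIBB-515 were 2191, 2327 and 2864 CPM. BIBB-515 mouse 11 stood apart at the top of its group, and the next highest treated mouse was at 2422 CPM. The difference was -0.20 on the log2 scale (95% interval -0.41 to 0.01; edgeR adjusted p = 0.195), so Apoc3 was not called.

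Because these genes sit side by side, their counts were also set against each other within each mouse, a ratio that no library scaling can change. Counts of Apoc3 over counts of Apoa4 averaged 2.36 ± 0.84 (SD, n = 6) in control mice and 4.30 ± 0.49 in BIBB-515 mice (exact permutation p = 0.00866, adjusted over 5 pairs of genes next to each other among the 10 genes 0.0108). The ratio of Apoa4 to Apoa5 was 0.473 ± 0.092 in control and 0.287 ± 0.056 in BIBB-515 mice (exact permutation p = 0.00649, adjusted 0.0108). Apoa4 thus fell by more than either neighbour. Counts of Apoa1 over those of Apoc3 were 4.64 ± 0.52 and 4.46 ± 0.35 (exact permutation p = 0.526), and the log2 difference of -0.05 had an SE of 0.08. The pairs were picked after the levels were known.

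Read counts by exon gave the same picture along the length of each gene. The 3 exons of Apoa4 had log2 ratios of treated to control means between -1.05 and -1.16. For Apoa5, the 3 exons with at least 50 reads in every mouse lay between -0.30 and -0.41, while its annotated leading exon of 12 bases held too few reads for a value. All 4 exons of Apoa1 (-0.21 to -0.27) and the 5 measurable exon entries of Apoc3 (-0.13 to -0.22) were slightly below 0. The libraries were counted without strand, and the GENCODE annotation places antisense transcripts over Apoa4 and Apoa5, whose reads cannot be told apart from those of the genes.

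The upstream sequences of Apoa4 and Apoa5 are shown because these were the called genes with the lowest p, and that of Apob because it also holds a match to an HNF4-type repeat. They come from RefSeq promoter windows of build GRCm38.p6, which held 8 of the 10 genes and not Apoc1 or Apoc3. Each run stops before the most upstream start annotated in RefSeq or GENCODE. Capitals mark matches on either strand to CAAAGNNCA, the form of direct repeat bound by hepatocyte nuclear factor 4 (HNF4), to AGGTCA, the core element of nuclear receptors, to TGACG, the core of the cAMP response element, or to the TATA box TATAAA.
Apoa4, chr9:46240594-46240695, plus strand: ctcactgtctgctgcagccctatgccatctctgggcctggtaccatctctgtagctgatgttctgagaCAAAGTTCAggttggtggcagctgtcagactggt
Apoa5, chr9:46268358-46268607, plus strand: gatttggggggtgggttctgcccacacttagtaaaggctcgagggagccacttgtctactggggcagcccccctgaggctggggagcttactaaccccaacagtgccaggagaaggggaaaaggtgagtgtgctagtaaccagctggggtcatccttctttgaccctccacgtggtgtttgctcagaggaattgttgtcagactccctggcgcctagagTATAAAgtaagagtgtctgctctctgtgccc
Apob, chr12:7977427-7977647, plus strand: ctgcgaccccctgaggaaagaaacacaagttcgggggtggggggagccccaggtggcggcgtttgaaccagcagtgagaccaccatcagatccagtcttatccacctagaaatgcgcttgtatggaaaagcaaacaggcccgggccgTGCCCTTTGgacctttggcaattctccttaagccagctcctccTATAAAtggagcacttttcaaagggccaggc

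In the Apoa4 window the HNF4-type repeat CAAAGTTCA lies 182 to 174 bases before the RefSeq start. The Apob window holds another match to CAAAGNNCA on the opposite strand, read here as TGCCCTTTG, 103 to 95 bases before the start. Among all 32851 promoter windows in the table, 5.49% held CAAAGNNCA within the 250 bases before the start. Only these 2 of the 8 genes with a window held a match, of which Apoa4 was called lower and Apob was not called. Apoa5 held a TATA box 31 to 26 bases before its start, as 12.4% of all windows did somewhere in those 250 bases. Of the 8 genes with a window, 4 held TATAAA, namely Apoa2, Apoa5, Apob and Apoe, and of these only Apoa5 was called. In Apoe it lay before an annotated start inside the gene (chr7:19698621). AGGTCA was present in 14% and TGACG in 17.8% of all windows, and neither occurred in the windows of Apoa4 or Apoa5. Apoc2 held both in the same window and Apoa2 in windows of different annotated starts, and neither gene was called. The 8 genes had 12 windows, and a gene was counted if any of its windows held a match. The shares over all windows count single windows. A match to a few letters is a description of the window, not a measured site.

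A further cluster, on chromosome 7 and read from the minus strand, holds Apoe (chr7:19696244-19699166), Apoc1 (chr7:19689480-19692659) and Apoc2 (chr7:19671579-19677941). Apoc1 encodes ApoC-I, a small protein of very low density lipoprotein and HDL that slows receptor uptake of remnants. Its lowest, median and highest levels were 2194, 2433 and 2681 CPM in control mice. In BIBB-515 mice they were 1796, 1991 and 2104 CPM. Every treated mouse was below every control mouse, which 7.07% of all tested genes also showed in one direction or the other. The log2 fold change of Apoc1 was -0.30 ± 0.07 (SE, n = 6 and 6; edgeR adjusted p = 0.0163). Its exact permutation p of 0.00216 is the smallest that relabeling 6 and 6 mice can give.

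Apoe, the receptor ligand, was the most highly counted of the 10 genes. Control mice ran from 13409 through a median of 15631 to 19682 CPM, and BIBB-515 mice from 14126 through 15347 to 16553 CPM. The treated range lay inside the control range. The log2 difference was -0.08 (95% interval -0.30 to 0.14; edgeR adjusted p = 0.658).

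Apoc2 encodes ApoC-II, the activator that lipoprotein lipase requires. Control mice had 174, 258 and 300.3 CPM as lowest, median and highest, and BIBB-515 mice 240.1, 291 and 321 CPM. Control mouse 3 was the lowest again, and 2 treated mice were above all controls. The log2 fold change was 0.24 (95% interval -0.01 to 0.48), the largest positive value among the 10 genes, and it was not called (edgeR adjusted p = 0.186). The count for Apoc2 rose by 0.443% to 1.13% per library in the tables that also count reads shared with overlapping genes, while the other 9 genes gained at most 0.0218%.

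Within each mouse, counts of Apoe over counts of Apoc1 were 6.67 ± 0.58 (SD, n = 6) with the control diet and 7.82 ± 0.33 with BIBB-515, with no overlap (exact permutation p = 0.00216, adjusted over the 5 pairs 0.00541). Counts of Apoc1 over those of Apoc2 fell from 10.1 ± 1.4 to 6.83 ± 0.60, also with no overlap (exact permutation p = 0.00216, adjusted 0.00541). Apoc1 thus fell relative to both Apoe and Apoc2 (Apoc4 lies between it and Apoc2). The 5 exon entries of Apoc1 had log2 ratios from -0.22 to -0.46, and all 4 exons of Apoe lay between -0.07 and -0.14. The 4 measurable exons of Apoc2 lay between 0.06 and 0.29. Its leading exon, with as few as 22 reads in a mouse, was left out and had a ratio of -0.75. Reads of Apoc1 and Apoc3 could not be split by transcript, since reads on several annotated transcripts had been dropped and at most 0.0581% and 0.154% of their gene counts remained.

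Apob (chr12:7977677-8016839, plus strand) had 2898, 4191 and 4872 CPM as its lowest, median and highest control values and 3353, 4028 and 4376 CPM with BIBB-515. The treated range lay within the control range. The log2 difference was -0.06 (95% interval -0.31 to 0.19; edgeR adjusted p = 0.777). The lowest of the 12 mice was control mouse 4, and its reads were spread differently along this transcript, which is the longest of the 10 at 13909 bases of exon. In that mouse the last of the 29 exons had 43.1 times the read density of exons 1 to 25, beside 7.4 to 15.1 times in the other control mice and 8.33 to 19.3 times in BIBB-515 mice. Density in exons 1 to 25 was 24.6 CPM per kilobase in control mouse 4, against 77.6 to 119 in the other controls, whereas its last exon, at 1061 CPM per kilobase, was within the range of the group. Whether RNA quality differed in this library was not tested. Without control mouse 4 the log2 difference of Apob was -0.13 and was not called (edgeR adjusted p = 0.372).

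**Figure D2:**
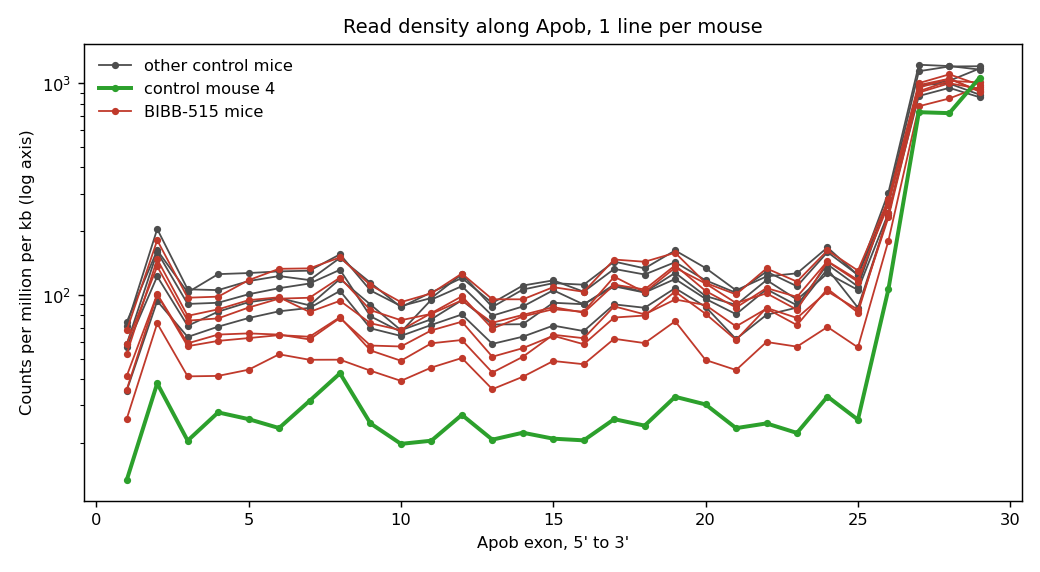
Read density, in CPM per kilobase on a log axis, in each of the 29 exons of Apob from 5′ to 3′, with 1 line per mouse. Control mouse 4 (green) is the lowest of the 12 in exons 1 to 28 and is among the other mice in exon 29, where its density was 1061.

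Read by parts, Apob density was averaged over all 6 mice of each diet, control mouse 4 included. Density in the last exon averaged 1055 ± 152 CPM per kilobase (SD, n = 6) in control mice and 953 ± 37 in BIBB-515 mice, and in exon 26, the longest exon, 241 ± 71 and 246 ± 38. In exons 1 to 25 it was 87.8 ± 34.5 and 82.4 ± 24.3. There control mouse 4, at 24.6 against 77.6 to 119 in the other controls, lowered the control mean and widened its SD. No test was run on these densities.

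Apoa2 (chr1:171225054-171226379, plus strand), which encodes the second main HDL protein, had 5460, 6160 and 7757 CPM as lowest, median and highest in control mice and 5720, 6630 and 7205 CPM in BIBB-515 mice. The log2 difference was 0.05 (95% interval -0.15 to 0.26; edgeR adjusted p = 0.760), and the treated range lay inside the control range. Apom (chr17:35128997-35131752, minus strand) encodes ApoM, the HDL protein that carries sphingosine-1-phosphate. Its values were 185, 283 and 356 CPM in control mice and 279, 300.4 and 340 CPM in BIBB-515 mice. The lowest control was control mouse 4. The log2 difference of Apom was 0.08 (95% interval -0.18 to 0.34; edgeR adjusted p = 0.709) and became -0.01 without that mouse (edgeR adjusted p = 0.957), so it has no settled direction.

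**Figure D3:**
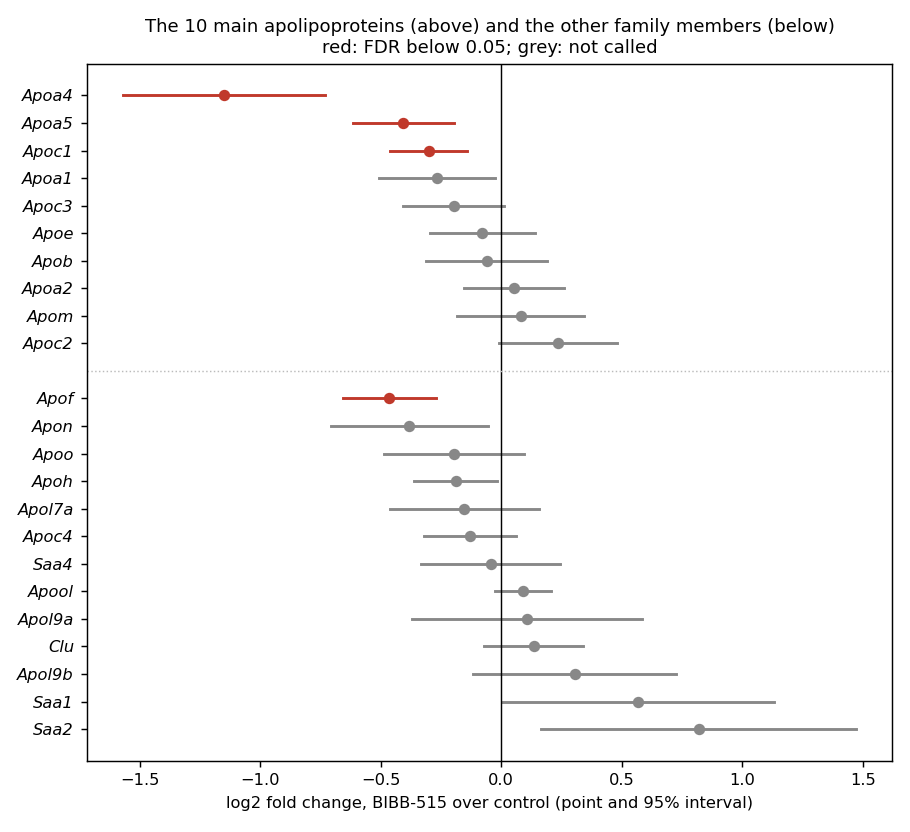
log2 fold change of BIBB-515 over control with its 95% interval for the 10 main apolipoprotein genes (above the dotted line) and the 13 other family members tested (below). Apoa4, at -1.15, Apoa5, Apoc1 and, below the line, Apof are called at an edgeR adjusted p below 0.05 (red), all on the side of lower levels.

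Levels can be compared between genes only per length, as CPM per kilobase of exon. On that scale Apoe (12933 ± 1846, SD, n = 6), Apoa1 (12878 ± 2236) and Apoa2 (12256 ± 1549) headed the order in control mice, ranking 2, 3 and 4 among all tested genes. Their ranges overlapped. Within single control mice, Apoe was above Apoa1 in 3 of 6 and Apoa1 above Apoa2 in 4 of 6. Apoc1 followed at 4363 ± 314 and Apoc3 at 3671 ± 453. The ranges of these 2 genes overlapped, but Apoc1 was above Apoc3 in 6 of 6 control mice. Apoa5 was next at 1124 ± 163 and Apoa4 at 753 ± 211. Again the ranges overlapped, with Apoa5 above Apoa4 in 6 of 6 control mice. Apom (402 ± 85), Apoc2 (338 ± 61) and Apob (296 ± 52) were last, each overlapping its neighbour. No test was run between the levels of different genes. The Apob value is an average over unevenly read exons. Control means were 1055 CPM per kilobase in its last exon and 87.8 in its first 25 exons. The last place of Apob therefore holds only for this whole-length scale. Whether Apob mRNA was the least abundant of these genes was not tested.

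The order was not the same with BIBB-515. Apoa2 averaged 12713 ± 1002 CPM per kilobase and exceeded Apoa1, at 10709 ± 465, in 6 of 6 mice, where control mice had Apoa1 above Apoa2 in 4 of 6. On average Apoa2 also passed Apoe, at 12254 ± 713, but their ranges overlapped. Apoa4 dropped to 339 ± 69 and from rank 75 to rank 207 among all tested genes, below Apom (425 ± 28) in 5 of 6 treated mice and below Apoc2 (397 ± 38) on average. Together the 10 genes took 4.79% ± 0.53 (SD, n = 6) of all counts in control mice and 4.47% ± 0.16 in BIBB-515 mice.

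**Figure D4:**
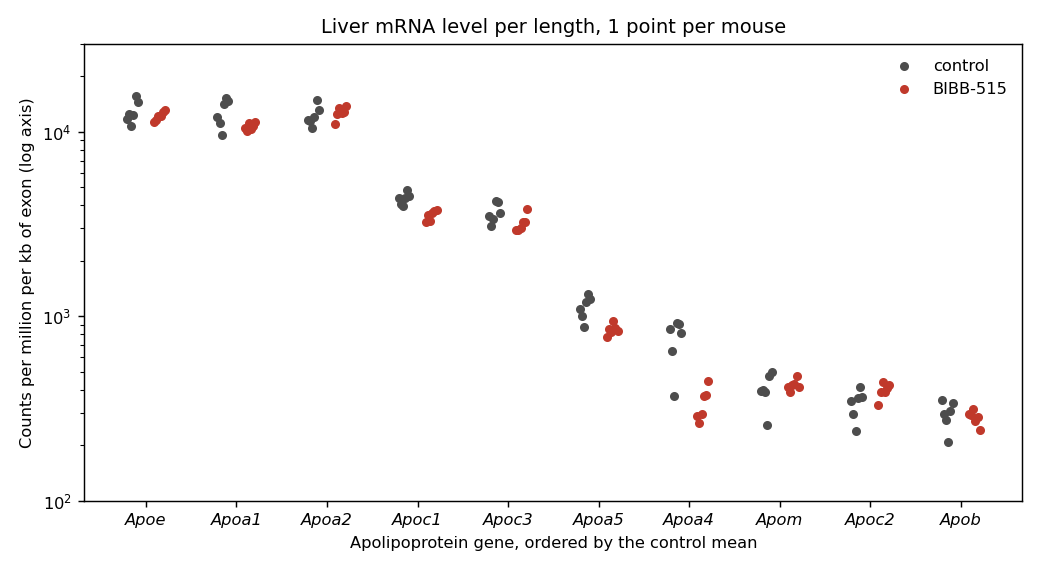
Liver mRNA level per length of the 10 apolipoprotein genes, in CPM per kilobase of exon on a log axis, with 1 point per mouse for 6 control (grey) and 6 BIBB-515 (red) mice. Apoe, Apoa1 and Apoa2 form the top group, and Apoa4 is the gene whose red points lie farthest below the grey ones, at a mean of 339 against 753.

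The spread between mice was not tested and is given as a description. The coefficient of variation was lower in the treated group for 10 of 10 apolipoprotein genes, and it was lower for 77.8% of all tested genes. Its median over the 10 genes was 15.9% in control and 7.24% in treated mice, beside 13.6% and 9.17% over all genes. Control mouse 3 was the lowest control for 7 of the 10 genes and control mouse 5 the highest for 6, whereas over all tested genes they were lowest and highest for 19% and 17%. Among treated mice, BIBB-515 mouse 6 was lowest for 6 genes and BIBB-515 mouse 11 highest for 6. Over all tested genes these mice were lowest and highest in their group for 17.8% and 21.3%.

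Of the other genes of the family, 13 of 15 passed the filter, and 1 (7.69%) was called, beside 13.7% of all tested genes. Apof, whose product is a plasma protein that regulates cholesteryl ester transfer, ran from 677 to 972 CPM in control mice and from 584 to 687 CPM with BIBB-515, so that it fell by 0.46 ± 0.09 on the log2 scale (SE; edgeR adjusted p = 0.00411). The groups overlapped by a narrow margin. Apoc4, which lies between Apoc1 and Apoc2, had a log2 difference of -0.13 and Apoh, beta-2-glycoprotein I, one of -0.19, and neither was called (edgeR adjusted p = 0.356 and 0.127). Apon, which was at -0.38 (edgeR adjusted p = 0.109), was called at -0.49 without control mouse 3 (edgeR adjusted p = 0.00776). The acute-phase HDL proteins Saa1 and Saa2 had log2 differences of 0.57 and 0.82 with wide spreads (edgeR adjusted p = 0.164 and 0.0874), and Saa4, the constitutive form, was at -0.04. Saa2 was called when control mouse 2 or BIBB-515 mouse 7 was left out, with edgeR adjusted p as low as 0.0279. Clu (0.13), Apool (0.09), Apoo (-0.20), Apol7a (-0.15), Apol9a (0.11) and Apol9b (0.31) did not pass the test either. The median over the 13 genes was -0.04.

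Genes that load, release, remodel and clear the particles were read from the same fit. In particle assembly and secretion, 2 of 17 genes (11.8%) were called, both higher, beside 13.7% of all tested genes. The list's median log2 fold change was 0.06. P4hb, the protein disulfide isomerase that is a subunit of the microsomal triglyceride transfer protein, rose by 0.28 ± 0.07 (SE; edgeR adjusted p = 0.014), and all 6 treated mice (1520 to 1667 CPM) were above all controls (1255 to 1486 CPM). Groups without overlap were found for 7.07% of all tested genes. Dgat1, which makes triglyceride, rose by 0.24 ± 0.07 (edgeR adjusted p = 0.031) but lost the call when control mouse 1 or 6 or BIBB-515 mouse 7, 9, 10 or 11 was left out (edgeR adjusted p up to 0.0691). The lipid-loading subunit Mttp, at -0.15, was not called (edgeR adjusted p = 0.196).

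Of the 12 genes of plasma lipolysis and remodeling reported here, 8.33% were called, beside 13.7% of all tested genes, and the called gene was Lipg. It encodes endothelial lipase, which hydrolyses HDL phospholipid, and had a log2 fold change of -0.79 ± 0.25 (SE; edgeR adjusted p = 0.0469). Lipg kept the call in only 2 of 12 fits that each left out 1 mouse, those without control mouse 5 or 6. In the others its edgeR adjusted p was up to 0.101. It lost the call with limma-voom (adjusted p = 0.0685) and with total counts as the scale (edgeR adjusted p = 0.0615). Lipc was at -0.35 and was not called (edgeR adjusted p = 0.0619). Without control mouse 3 or 4 Lipc was called, with an edgeR adjusted p as low as 0.0161. Gpihbp1, at 0.13 (edgeR adjusted p = 0.486), was called at 0.26 without control mouse 3 (edgeR adjusted p = 0.0411). Among the 11 receptors and uptake proteins reported here, the lowest p was that of Sdc1, the proteoglycan syndecan-1 that takes up remnants, which had a log2 difference of 0.38 and was not called (edgeR adjusted p = 0.115). Lrp1 (-0.18), a remnant receptor that binds ApoE, was not called either (edgeR adjusted p = 0.203).

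In HDL formation and sterol efflux, 4 of 8 genes were called, 3 of them higher, beside 13.7% of all tested genes. The list median was 0.27. Abcg5 and Abcg8, the paired transporters that export sterols into bile, rose by 0.88 ± 0.11 and 0.86 ± 0.11 (SE; edgeR adjusted p = 0.000102 and 0.000235). Each was without overlap between groups, as were 7.07% of all tested genes. Npc2, which moves cholesterol out of lysosomes, rose by 0.22 ± 0.06 (edgeR adjusted p = 0.0367) and lost the call without control mouse 1 or 4 or BIBB-515 mouse 6, 8, 9, 10 or 11 (edgeR adjusted p up to 0.0769). Bmp1, the protease that trims pro-ApoA-I, fell by 0.34 on the log2 scale (edgeR adjusted p = 0.0144). Abca1, which lipidates ApoA-I, was at -0.21 and was not called (edgeR adjusted p = 0.0821) except without control mouse 4 (-0.24, edgeR adjusted p = 0.046). Abcg1 (0.46), Pctp (0.32) and Npc1 (0.16) were not called either (edgeR adjusted p = 0.051, 0.103 and 0.318). Abcg1 and Npc1 were called without control mouse 2, and Pctp without control mouse 5 or 6.

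**Figure D5:**
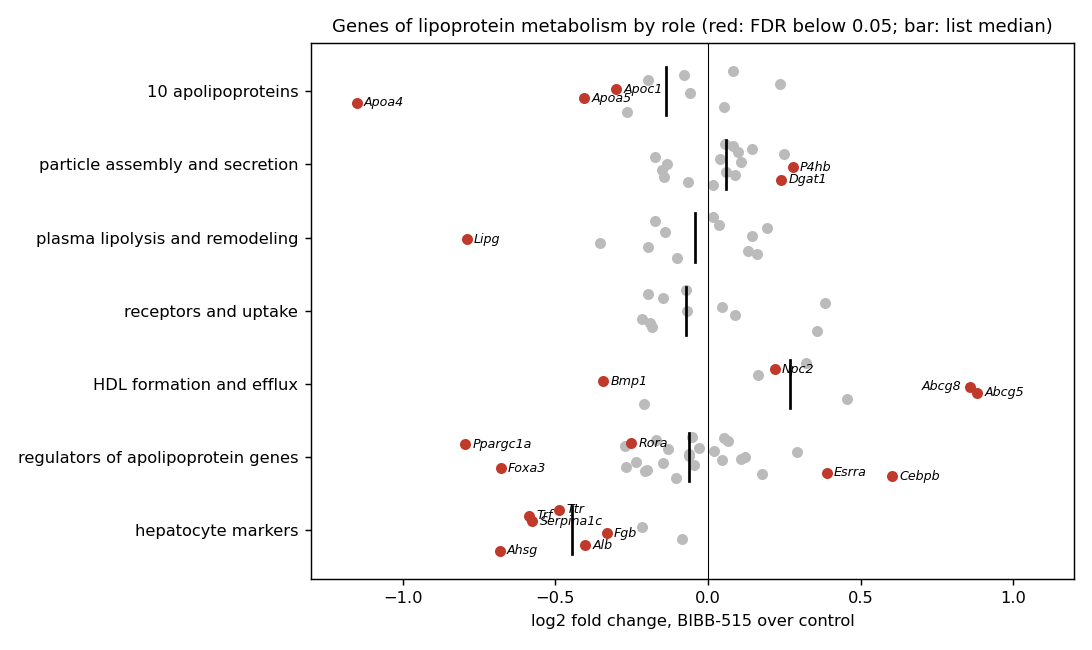
log2 fold change of BIBB-515 over control for each tested gene reported here in 7 lists, with called genes (edgeR adjusted p below 0.05) in red and named, others in grey, and a black bar at each list's median. The 10 apolipoproteins have called genes only below 0, while Abcg5, at 0.88, and Abcg8 stand farthest above 0.

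Of the 27 regulators of apolipoprotein genes reported here, 5 (18.5%) were called, beside 13.7% of all tested genes, and the list median was -0.06. Lower were Foxa3, a hepatocyte forkhead factor, at -0.68 ± 0.17, Ppargc1a, a coactivator of fasting and oxidative programmes, at -0.79 ± 0.19, and Rora, a nuclear receptor known to act on Apoa1, Apoa5 and Apoc3, at -0.25 ± 0.07 (SE; edgeR adjusted p = 0.015, 0.0139 and 0.0249). Rora lost the call without control mouse 1 or BIBB-515 mouse 7, 9 or 10 (edgeR adjusted p up to 0.0628) and with total counts as the scale (edgeR adjusted p = 0.0596). Higher were Cebpb, at 0.60 ± 0.15, and the estrogen-related receptor Esrra, at 0.39 ± 0.09 (edgeR adjusted p = 0.018 and 0.011). The mRNAs of Hnf4a (-0.15), Ppara (-0.27), Nr1h3 (-0.06) and Creb3l3 (0.18), factors with known sites at the chromosome 9 cluster or at Apoc2, were not called (edgeR adjusted p = 0.368, 0.164, 0.675 and 0.492), although Ppara was called without control mouse 3 (-0.34, edgeR adjusted p = 0.043). Of known targets of Creb3l3 outside the 10 genes, 3 could be tested. Fgf21, a hepatic fasting hormone, was between 5.73 and 19.5 CPM in control and between 1.82 and 4.35 CPM in BIBB-515 mice, with a log2 fold change of -1.80 ± 0.26 (SE; edgeR adjusted p = 0.000508). Hamp (-0.51) and Cidec (0.59) were not called (edgeR adjusted p = 0.185 and 0.162).

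Markers of cell types were read from the same fit. Of 8 hepatocyte markers, 6 were called lower, beside 6.48% of all tested genes. They were Alb (-0.40), Ttr (-0.49), Trf (-0.58), Serpina1c (-0.58), Ahsg (-0.68) and Fgb (-0.33), while Hpx (-0.22) and Cps1 (-0.09) were not called. Of the 6, only Fgb lost the call when 1 mouse was left out, in 9 of 12 fits (edgeR adjusted p up to 0.0833). The summed level of all 8 markers was 165303 to 185517 CPM in control and 121700 to 136956 CPM in BIBB-515 mice. The part of these markers in the lower Apoa4, Apoa5 and Apoc1 levels was not tested. Intestine also makes ApoA-IV. Of the 6 intestine markers, 3 (Sis, Cdx2 and Alpi) had no reads in any library, Lct had at most 1 read and Vil1 stayed below 1 CPM. Fabp2, which liver also expresses, was lower in BIBB-515 mice by a log2 fold change of -0.66 (edgeR adjusted p = 0.0114). None of 10 Kupffer cell and macrophage markers, 8 endothelial markers and 5 bile duct markers was called, and 3 of 9 stellate cell markers (Lrat, Dcn and Colec10) were called lower, of which Dcn and Colec10 lost the call in 8 and 3 of those 12 fits and with total counts as the scale (edgeR adjusted p = 0.105 and 0.0783). Adipose tissue and blood cell markers summed to at most 11.6 and 18 CPM per library, with Lep listed at 0. The 4 globin genes in the blood list were at 0 in the gene tables, which drop reads on several places or genes, so that sum does not measure blood. In the tables of primary alignments, Hbb-bs was at 58.8 to 156 CPM in control and 41.9 to 89.1 CPM in BIBB-515 mice, with overlapping groups.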

How the data were processed

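Liver RNA-seq libraries of 12 mice were analysed, 6 per diet, grouped by the diet in their labels. The authors deposited whole-number counts per gene, per transcript and per exon. Per the file headers and the submitters' processing notes, reads were aligned with STAR 2.5.3a to mm10 and counted with featureCounts 1.6.3 (Subread) over UCSC gene models, without strand and without reads mapping to several places; the gene tables also drop reads that lie on several genes. Such reads can be lost where genes overlap. The library kit is not given in the sources used here. The study's methods name edgeR with Benjamini-Hochberg adjustment for differential expression, described for tissues against clinical traits.

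A gene was tested if it reached 1 CPM in 10% of samples, that is in 2 of 12. After TMM normalisation, edgeR 4.0.16 (R 4.3.3) was used to fit quasi-likelihood models, with two-sided p-values adjusted by the Benjamini-Hochberg method across every tested gene and called below 0.05. For single genes an exact two-sided permutation test was run over all labelings of the mice on mean log2 CPM. Intervals are 95% and come from the edgeR fit. Exon densities used the same library factors. The fit was checked on data simulated with known answers. Libraries of a group differed by more than counting noise (chi-square per degree of freedom 13.4 to 155 over 30 pairs), so none was counted as a repeat.

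The alternatives were other scalings, DESeq2 1.42.0, limma 3.58.1 (voom), other filters, the tables of primary alignments, a surrogate variable (sva 3.50.0) and leaving out each mouse. Named genes were all 10 apolipoproteins, the other family members that passed the filter and, of each pathway list, at most 6 called genes by lowest p; the uncalled pathway genes, values without single mice, and the gene pairs were added after values were seen. The genes and lists were chosen with earlier results of these data known. Some genes of the pathway lists are not reported here, and the counts and medians of those lists leave them out.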

Additional observations from a re-analysis of the deposited data

Results flagged for a closer look

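In 204 groups of 6 values (the CPM of 101 apolipoprotein and pathway genes in each diet group, and library totals), the gap between the most extreme mouse and its nearest neighbour, as a share of the whole range, passed Dixon's 95% critical value in 14. Chance alone passes it in about 1 of 20 groups, or 10.2 here. Of the 10 apolipoprotein genes only Apoc3 was among them, through BIBB-515 mouse 11 (2864 CPM, the next mouse at 2422, gap share 0.657). The same mouse was the highest for Apoc4, a family member on chromosome 7 (784 CPM, next 686, gap share 0.699).

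In control mice the gap shares were 0.688 for Apoo (lowest, mouse 5), 0.644 for Gpihbp1 and 0.752 for Lsr (both highest in mouse 3), and 0.694 for Ppargc1a and 0.636 for Nr1i2 (both highest in mouse 2). Ppargc1a was at 42.7 CPM in that mouse and at 25.2 CPM in the next. In BIBB-515 mice they were 0.67 for Mttp (lowest, mouse 8), 0.64 for Dgat2 (highest, mouse 9), 0.648 for Soat2 (lowest, mouse 10), 0.627 for Pdia3 (lowest, mouse 7), 0.639 for Sdc1 (highest, mouse 8), 0.628 for Esrra (lowest, mouse 6) and 0.697 for Cidec (highest, mouse 7).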

How the results depend on the processing

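Apoa4, Apoa5 and Apoc1 were called under each of the 10 alternatives run on all mice and in each of the 12 fits that left out 1 mouse, and the count of called apolipoprotein genes was 3 throughout, except for 4 without control mouse 3, which added Apoa1 (-0.33, edgeR adjusted p = 0.0354). Over the 10 alternatives the log2 fold change was -1.15 to -1.04 for Apoa4, -0.41 to -0.35 for Apoa5 and -0.30 to -0.25 for Apoc1; leaving out mice gave -1.28 to -1.08, -0.46 to -0.35 and -0.32 to -0.26. Apom ranged from -0.00892 to 0.159 when 1 mouse was left out, changing sign without control mouse 4, and, in a fit added after seeing the data, it was -0.0443 without control mice 3 and 4; the cause was not tested. That fit and another added one, with the Apob 3′ to 5′ density ratio as covariate, called the same 3 genes. All genes called numbered 1199 to 1865 when 1 mouse was left out, and called pathway genes 10 to 18, where the full set gave 1705 and 14. Of the 14 pathway genes, 10 stayed called in all 12 of those fits, with limma-voom and with total counts. DESeq2 called 2244 genes and 19 pathway genes, and the fit with no filter beyond 1 count called 1489 genes. Total counts without a scaling factor called 1986 genes, 24.7% of them lower, against 47.4% with TMM. No paired analysis was run, because nothing in the labels pairs a control mouse with a BIBB-515 mouse. Depth was high, so the spread between 6 mice limits what can be seen: for the 7 uncalled genes the intervals reach from -0.51 to 0.48.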
